A study of Mus musculus with 16 samples.

Results

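The genes described here encode AP-1 proteins and their close partners, and were chosen by symbol as Fos, Fosb, Fosl1, Fosl2, Jun, Junb, Jund, Atf3, Maff and Batf. All 10 were found among the 14925 genes of the tables, with 11 of 30622 3′-UTR rows, since Maff is listed in 2 identical rows. They were measured by RIP-seq, which sequences the RNA pulled down with a protein, in BMDMs of mice, macrophages that were grown from bone marrow in conditioned medium as the source of M-CSF. One antibody, against the RNA-binding protein CPEB4, was used on crosslinked lysates (RIP), and the RNA of the lysate was sequenced beside it (Input). A wild-type (WT) culture, numbered 76, and a Cpeb4 knockout (KO) culture, numbered 73, both of strain C57BL/6J 129 and from adult mice, were left untreated or received lipopolysaccharide (LPS, from E. coli) at 10 ng/ml for 9 h. The KO mice lacked Cpeb4 in all tissues according to the methods, and the labels do not say from how many mice a culture came. The 16 samples are 8 libraries run on lanes 7 and 8, and the lanes of a library share 1 column, so each genotype, treatment and assay has 1 library. No single pair of libraries has a replicate check, and every interval covers counting error only. The LPS change could also be tested over the 2 cultures together.

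AP-1 is a dimer of basic leucine zipper (bZIP) proteins that binds DNA. FOS, FOSB, FOSL1 and FOSL2 pair with JUN, JUNB or JUND, while ATF3, BATF and the small MAF protein MAFF pair with these or with other bZIP proteins. Many of these genes are immediate-early genes, which signalling switches on without new protein synthesis, and macrophages use them in the response to bacterial products. Their mRNAs are often short-lived, and AU-rich elements (AREs) in 3′-UTRs are known to speed the decay of such mRNAs. CPEB proteins recognise cytoplasmic polyadenylation elements (CPEs), U-rich motifs in 3′-UTRs, and the study used the KO to tell CPEB4-bound mRNAs from background in the RIP.

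The counted regions lie on mm10 as follows. Fos is at chr12:85476459-85477273 on the plus strand, Fosl1 at chr19:5455309-5455945 (plus), Fosl2 at chr5:32153190-32157831 (plus) and Fosb at chr7:19302721-19304840 (minus). Jun is at chr4:95049034-95050266 (minus), Junb at chr8:84976909-84977394 (minus) and Jund at chr8:70700084-70700616 (plus). Atf3 is at chr1:191170296-191171481 (minus), Batf at chr12:85708753-85709087 (plus) and Maff at chr15:79357856-79359072 (plus). In GENCODE M21, 9 of the regions lie inside an exon of their own transcript, and that of Junb reaches 1 base beyond it at the 3′ end. The region of Fosl1 overlaps an exon of Ccdc85b on the opposite strand, and the library kit named in the labels is not stated to mark strand, so reads of Fosl1 cannot be told from those of Ccdc85b there.

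The sequences of the regions, read from GRCm38.p6, were searched on the mRNA strand for canonical CPEs (TTTTAT or TTTTAAT), other CPEs (TTTTAAAT, or TTTTACT, or TTTTCAT, or TTTTAAGT), the CPE-G variant (TTTTGT), the ARE pentamer (ATTTA), polyadenylation signals (AATAAA or ATTAAA) and the Pumilio element (TGTANATA), with overlapping matches counted. The windows below hold CPE or ARE matches of the members on which the comparisons turn, with CPE, CPE-G and ARE letters in capitals and each sequence written 5′ to 3′ on the mRNA strand. Fos, Fosl2, Fosl1, Jun, Junb and Maff show a canonical CPE, Jund shows CPE-G motifs only, and Atf3 shows an ARE. Atf3 also has 1 CPE-G, which lies outside the window shown.
Fos (chr12:85477139-85477168, plus): ATTTAtatTTTTATTTTATttttttctacc
Fosl2 (chr5:32156869-32156898, plus): acATTTATTTTATtATTTATTTTAAATgtt
Fosl1 (chr19:5455879-5455908, plus): ATTTAttttcctaaagagactatTTTTATa
Jun (chr4:95049590-95049619, minus): aataaagtatataatttTTTTATgTTTTGT
Junb (chr8:84976924-84976953, minus): TTTTATtgaatctATTTAagtaaaaaaaaa
Jund (chr8:70700522-70700551, plus): TTTTGTttggTTTTGTtttgctacgagtcc
Maff (chr15:79358878-79358907, plus): TTTTATatctacaaataaatcacATTTAat
Atf3 (chr1:191170337-191170366, minus): aaaatattacttATTTAtcccagtattcct

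Canonical CPEs were found in 7 of the 10 regions, and Jund, Atf3 and Batf had none. Over all 14925 gene regions, 57.4% held a canonical CPE, 54.6% a CPE-G, 65.2% an ARE pentamer and 87.7% a polyadenylation signal. Fos had 3 canonical CPEs and 4 AREs in 815 bases, and 11.2% of regions of like length (within 20%) had as many canonical CPEs and 9.16% as many AREs. Fosl2, the longest region with 4642 bases, had 5 canonical CPEs, 5 other CPEs, 7 CPE-G motifs and 8 AREs, and 55.4% of regions of like length had as many canonical CPEs. Jun had 2 canonical CPEs and 2 Pumilio elements, and 4.65% of regions of like length had as many Pumilio elements. Jund had 3 CPE-G motifs in 533 bases, as many as 3.33% of regions of like length, and no polyadenylation signal among the searched hexamers. Atf3 had 1 CPE-G and 3 AREs in 1186 bases, and 60.6% of regions of like length had a CPE-G. Batf, the shortest region with 335 bases, had a polyadenylation signal and no match to any CPE, CPE-G, ARE or Pumilio motif, and 49.6% of regions of like length held a CPE or CPE-G. The deposited CPE predictions named Fos and Fosl2 (activation and repression) and Fosl1 (activation), and gave none for the other 7 members.

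**Figure D1:**
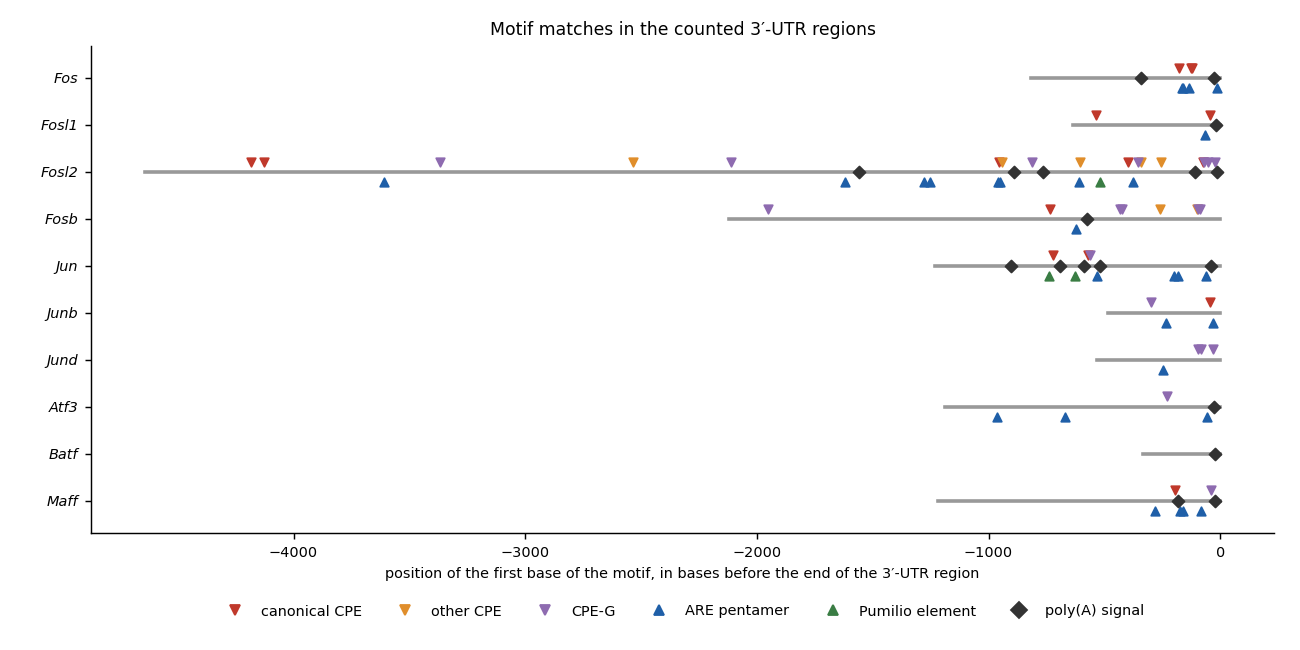
Motif matches in the counted 3′-UTR region of each member, with the region drawn as a grey line and the horizontal axis in bases before its end. Triangles pointing down are CPE classes, triangles pointing up are ARE pentamers and Pumilio elements, and diamonds are polyadenylation signals. Batf, with 335 bases, carries a polyadenylation signal alone, and Fosl2, with 4642 bases, carries the most matches.

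Depth and identity of the libraries bear on all values. Reads over 3′-UTRs numbered from 929054 to 1897360 in the Inputs, 1665914 (untreated) and 2492300 (LPS) in the WT RIPs, and 467696 and 871482 in the KO RIPs. These reads were from 46.4% to 51.1% of the library total implied by the deposited RPKM in the Inputs, 48.9% and 70.1% in the WT RIPs and 27.3% and 31.8% in the KO RIPs. Levels below are reads scaled to the 3′-UTR total and given as CPM, and with library totals instead each WT over KO ratio of the RIPs moves up by 0.84 (untreated) or 1.14 (LPS) on the log2 scale. Cpeb4 itself stood at 130 and 136 CPM in the WT Inputs and at 52.0 and 52.6 in the KO Inputs, and at 836 and 770 in the WT RIPs against 257 and 367 in the KO RIPs. Whether the deleted part includes this 3′-UTR is not given in the sources used here. All 8 macrophage markers examined were present, with a summed level from 2538.8 to 3557.4 CPM in the Inputs, as the label says. In the Inputs 4 T cell markers summed to between 2.15 and 9.05 CPM, with Cd3d and Cd3e at 0 in all, 3 dendritic cell markers to at most 1.05, 3 B cell markers to at most 0.754, and 2 erythroid and megakaryocyte markers and 2 endothelial markers to the values that follow. The erythroid and megakaryocyte sum moved with LPS from 22.6 to 39.5 CPM in WT and from 15.1 to 45.9 in KO, and the endothelial sum from 7.53 to 44.8 and from 7.54 to 70.6. The part of both in the LPS comparisons was not tested. Of 5 neutrophil markers only S100a8 was in the tables, at 0 in all Inputs.

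Among FOS proteins, Fosl2 was by far the most read and Fosb and Fosl1 were close to the counting limit. Fos, the classic immediate-early partner of JUN, stood in the Inputs at 31.2 CPM (WT untreated), 17.4 (WT LPS), 36.2 (KO untreated) and 21.3 (KO LPS). In the RIPs Fos stood at 147, 49.0, 70.6 and 24.1 CPM in the same order. In both treatments the WT RIP of Fos lay above the KO RIP, and in both genotypes the untreated RIP lay above the LPS one. Fosl2, which encodes FRA-2, stood in the Inputs at 197, 829, 250 and 747 CPM, and in the RIPs at 181, 563, 148 and 482. All 4 LPS libraries of Fosl2 lay above all 4 untreated ones. Fosl1, which encodes FRA-1, had 0, 7, 1 and 9 reads in the Inputs and 1, 24, 1 and 4 in the RIPs, and the highest level, 9.63 CPM, was in the WT LPS RIP. Fosb, a close relative of Fos, had 4, 1, 7 and 1 reads in the Inputs and 3, 4, 1 and 5 in the RIPs, so that no library showed more than 7 reads.

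The JUN genes were read in all libraries. Jun stood in the Inputs at 67.8 CPM (WT untreated), 66.4 (WT LPS), 73.9 (KO untreated) and 47.3 (KO LPS), and in the RIPs at 246, 174, 152 and 134. Each RIP level of Jun was above every Input level. Junb, whose product often opposes JUN in AP-1 dimers, stood in the Inputs at 88.3, 221, 89.0 and 243 CPM, and in the RIPs at 93.0, 162, 59.9 and 134. The 4 LPS levels of Junb lay above the 4 untreated ones. Jund, known as the most constantly expressed JUN gene, stood in the Inputs at 332, 298, 314 and 323 CPM, and in the RIPs at 366, 317, 152 and 250. The KO RIPs held the lowest of the 8 levels of Jund.

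Atf3, a bZIP repressor of inflammatory genes, stood in the Inputs at 344 CPM (WT untreated), 357 (WT LPS), 348 (KO untreated) and 485 (KO LPS), and in the RIPs at 112, 118, 201 and 398. Both WT RIPs of Atf3 lay below all other libraries. Batf, which pairs with JUN proteins and is best known from lymphocytes and dendritic cells, stood in the Inputs at 0, 27.4, 0.754 and 43.3 CPM, and in the RIPs at 4.20, 105, 0 and 24.1. The floor used for a count of 0, 3 reads, is 3.23 CPM in the untreated WT Input and 6.41 in the untreated KO RIP. Maff stood in the Inputs at 7.53, 89.1, 4.52 and 65.9 CPM, and in the RIPs at 12.6, 118, 6.41 and 45.9. For Batf and Maff the WT LPS RIP held the highest level of all 8 libraries.

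**Figure D2:**
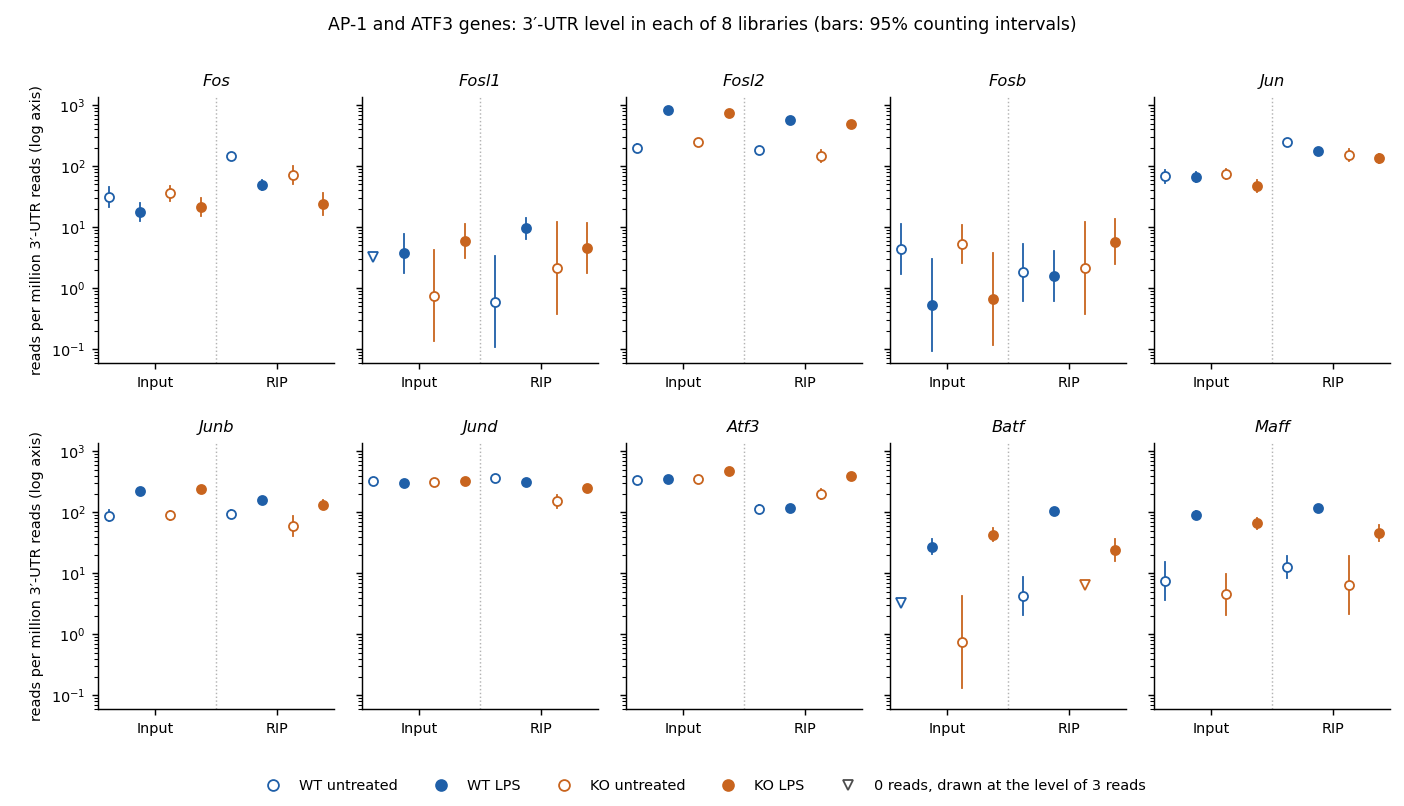
Level of each member in the 8 libraries, in CPM of the 3′-UTR total on a log axis, with Inputs left and RIPs right of the dotted line. Blue is WT, orange is KO, open circles are untreated and filled circles LPS libraries, bars are 95% counting intervals, and open triangles mark libraries with 0 reads, drawn at the level of 3 reads. Atf3 is lowest in the WT RIPs (112 and 118), whereas Batf is highest in the WT LPS RIP (105).

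Per length, in CPM per kilobase, Jund was the highest member in all 8 libraries, with 622 (WT untreated) and 560 (WT LPS) in the WT Inputs. In the untreated WT Input, Atf3 (290) and Junb (182) followed, each above the next beyond counting error. Jun (55.0), Fosl2 (42.4) and Fos (38.3) came next, and neighbours among them did not differ beyond counting error. In the LPS WT Input the order was Jund, Junb (455), Atf3 (301) and Fosl2 (179), each above the next beyond counting error, then Batf (81.8) and Maff (73.2), which did not differ beyond it. The order of the untreated WT RIP was Jund (686), Jun (199), Junb (191), Fos (180) and Atf3 (94.6), so that Jun and Fos stood above Atf3 there and below it in the Input.

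The first comparison asks which of these mRNAs stood higher or lower 9 h after LPS. In the lysates Batf, Maff, Fosl2 and Junb were higher after LPS in both genotypes, Fos was lower by less than the size required for a call, and Jund was near its untreated level. A gene was called where its log2 ratio was over 1 in size, the 95% interval from the read counts left out 0, and the pair of libraries held at least 10 reads. In the WT Input 4 of 8 counted members were called higher and 0 lower, against 11.7% of all 8163 genes counted called higher and 15.4% lower. In the KO Input 4 of 9 were called higher and 0 lower, against 12.1% and 18.5% of 8250 genes. The same 4 genes, Fosl2, Junb, Maff and Batf, were called in both. Over the 8 members counted in both genotypes the median log2 ratio was 0.68 in WT and 0.96 in KO, beside -0.08 and -0.18 over all genes counted in each. With TMM scaling the shares of all genes called higher and lower were 14.0% and 12.7% in WT and 15.7% and 14.2% in KO, with the same members called in WT and Fosl1 added in KO.

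Maff showed a log2 ratio of LPS over untreated of 3.38 (95% interval 2.36 to 4.40) in the WT Input and 3.66 (2.55 to 4.76) in the KO Input. Fosl2 showed 2.07 (1.85 to 2.29) and 1.58 (1.40 to 1.76), and Junb 1.31 (0.97 to 1.65) and 1.44 (1.14 to 1.74). Batf, with 0 reads in the untreated WT Input, was at least 8.49-fold higher after LPS against a floor of 3 reads, and in the KO Input its log2 ratio was 4.86 (2.83 to 6.89) over a single read. Of all genes counted, 2.11% had a larger ratio than Maff in the WT Input and 5.46% a larger one than Fosl2. Over both cultures, edgeR's quasi-likelihood test with the culture as a block called Fosl2, Junb, Maff and Batf higher and Fos lower among 8 members tested in the Inputs, at an adjusted p under 0.05, against 19.6% of 7867 genes called higher and 24.8% lower. The adjusted p was 1.7e-28 for Fosl2, 3.8e-24 for Maff, 6.9e-18 for Batf and 2.5e-14 for Junb. For Fos the log2 ratio was -0.80 with an adjusted p of 0.025, or 0.053 with TMM scaling. This test assumes the same LPS change in both genotypes and has 1 residual degree of freedom. Its spread between 2 cultures is moderated by that of all genes, so the size of these p-values rests largely on other genes. For Fosl2 the intervals of WT and KO given above did not overlap, so the test gives a common value for ratios that stood apart. These are bulk libraries, so fewer cells with an mRNA and less RNA per cell cannot be told apart.

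The remaining members were not called in the Input of either genotype alone. Fos stood at a log2 ratio of -0.85 (-1.56 to -0.14) in WT and -0.75 (-1.39 to -0.11) in KO, intervals that leave out 0. Jun showed -0.04 (-0.47 to 0.39) and -0.64 (-1.08 to -0.20), and Jund -0.15 (-0.35 to 0.05) and 0.04 (-0.15 to 0.23). Atf3 showed 0.05 (-0.14 to 0.24) in WT and 0.48 (0.31 to 0.64) in KO. At 9 h Atf3 and Fos, both known as early LPS or serum-responsive genes, thus did not stand above their untreated levels in the WT lysate beyond counting error. Fosl1 had 2.14 (-0.05 to 4.33) in KO and too few reads in WT, and Fosb had too few reads in both.

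In the RIPs Fosl2, Maff and Batf were again higher after LPS in both genotypes, and Fos was lower in both. In the WT RIP Fosl1, Fosl2, Maff and Batf were called higher and Fos lower among 9 counted members, against 10.6% of 8901 genes called higher and 19.7% lower. In the KO RIP Fosl2, Junb, Maff and Batf were called higher and Fos lower among 8, against 11.0% and 18.0% of 7227 genes. With library totals these background shares were 20.5% and 10.0% in WT and 14.8% and 13.3% in KO, and Junb was also called higher in WT and Atf3 in KO. Fos showed a log2 ratio of -1.58 (-1.89 to -1.27) in the WT RIP and -1.53 (-2.30 to -0.75) in the KO RIP. Jund showed -0.21 (-0.36 to -0.06) in WT, where the sign turned under the other scalings (0.31 with library totals), and 0.71 (0.32 to 1.09) in KO, and Atf3 0.07 (-0.19 to 0.34) and 0.98 (0.65 to 1.30). Batf showed 4.46 (3.44 to 5.47) in WT and was at least 3.76-fold higher in KO, where the untreated RIP held 0 reads. With the culture as a block, edgeR called Fosl2, Junb, Maff, Batf and Atf3 higher and Fos lower among 8 members in the RIPs, against 19.4% of 7149 genes called higher and 27.5% lower. Fos had a log2 ratio of -1.58 (adjusted p = 1.2e-10) and Atf3 0.50 (adjusted p = 0.018), a common value for ratios that stood apart in WT and KO. From Batf, the highest, to Fos, the lowest, the log2 ratios of the WT RIP spanned 6.04, a distance that is the same under any scaling of the libraries.

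**Figure D3:**
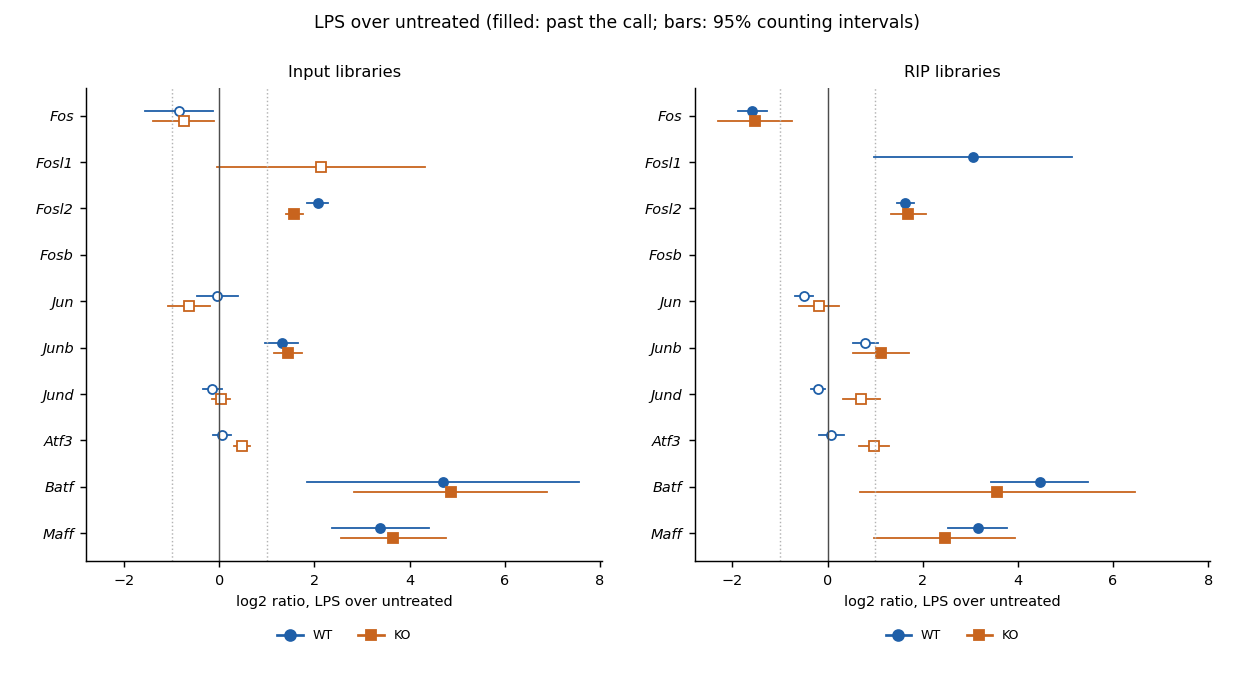
Log2 ratio of LPS over untreated for each member in the Inputs (left) and RIPs (right), with WT as blue circles and KO as orange squares. Filled symbols were called, bars are 95% counting intervals, dotted lines mark a log2 ratio of 1 in size, and members with too few reads are not drawn. Batf, Maff and Fosl2 lie to the right in all 4 pairs of libraries, and Fos lies at -0.85 and -0.75 in the Inputs and at -1.58 and -1.53 in the RIPs.

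The LPS change in the lysate was also compared between the genotypes. Among 8 counted members, 0 passed the call for the difference between WT and KO in the Inputs, against 2.64% of 7867 genes called higher and 1.44% lower. Fosl2 had the difference 0.49 (0.20 to 0.77), with a larger change in WT, and Atf3 -0.43 (-0.68 to -0.17), with a larger change in KO. Both intervals leave out 0 by counting error alone, and no replicate measures how far cultures vary. The other 6 ranged from -0.28 (Maff) to 0.60 (Jun), and each of their intervals included 0.

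The second comparison asks which members were enriched in the anti-CPEB4 RIP over the lysate. In WT cells Fos and Jun were higher in the RIP than in the Input in both treatments, Batf and Fosl1 in LPS, and Atf3 was lower in both. In the untreated WT pair 2 of 7 counted members were called higher and 1 lower, against 21.2% of 8359 genes called higher and 19.8% lower. In the LPS WT pair 4 of 9 were called higher and 1 lower, against 21.6% and 25.4% of 8767 genes, or 33.7% and 14.9% with library totals, which called the same members. A RIP over Input pair also differs in rRNA depletion, which the labels give for Input samples.

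Fos had a log2 ratio of RIP over Input of 2.19 (1.65 to 2.74) in untreated and 1.46 (0.91 to 2.01) in LPS-treated WT cells. Jun had 1.84 (1.46 to 2.22) and 1.38 (1.09 to 1.66). In the LPS pair Batf had 1.92 (1.49 to 2.34), and 8.90% of genes were higher, and Fosl1 had 1.25 (0.10 to 2.40) from 24 and 7 reads. Atf3 had -1.61 (-1.87 to -1.35) and -1.59 (-1.79 to -1.39). Fosl2 had -0.13 (-0.39 to 0.14) and -0.56 (-0.66 to -0.46), and was not called. Jund had 0.14 (-0.06 to 0.34) and 0.09 (-0.07 to 0.24), Junb 0.07 (-0.32 to 0.45) and -0.45 (-0.65 to -0.26), and Maff 0.62 (-0.55 to 1.78) and 0.40 (0.12 to 0.67).

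The same antibody was used on KO cells as a control. There Cpeb4 itself had a log2 ratio of RIP over Input of 2.29 (1.87 to 2.72) in untreated and 2.79 (2.44 to 3.14) in LPS-treated cells, against 2.67 (2.40 to 2.94) and 2.50 (2.31 to 2.68) in WT. The Input-corrected ratio of WT over KO for Cpeb4 was 0.38 (-0.12 to 0.88) and -0.29 (-0.69 to 0.11), and both intervals include 0. In the KO pairs Jun was called higher in both treatments and Jund lower in untreated cells. In the untreated KO pair 1 of 6 counted members was called higher and 1 lower, against 15.5% of 7708 genes called higher and 7.75% lower. In the LPS KO pair 1 of 9 was called higher and 0 lower, against 15.1% and 9.04% of 7861 genes. Jun had 1.04 (0.61 to 1.48) and 1.50 (1.08 to 1.92), against 1.84 and 1.38 in WT. With library totals, 4.83% and 32.9% of genes were called higher and lower in the untreated KO pair and 4.86% and 32.6% in the LPS pair. Jun then stood at 0.28 and 0.81 and was not called, and 4 members of the untreated pair and 5 of the LPS pair were called lower. Fos had 0.98 (0.35 to 1.61) and 0.20 (-0.58 to 0.98) in KO cells, and Batf -0.80 (-1.50 to -0.10) after LPS. Atf3 had -0.78 (-1.10 to -0.46) and -0.28 (-0.47 to -0.10).

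**Figure D4:**
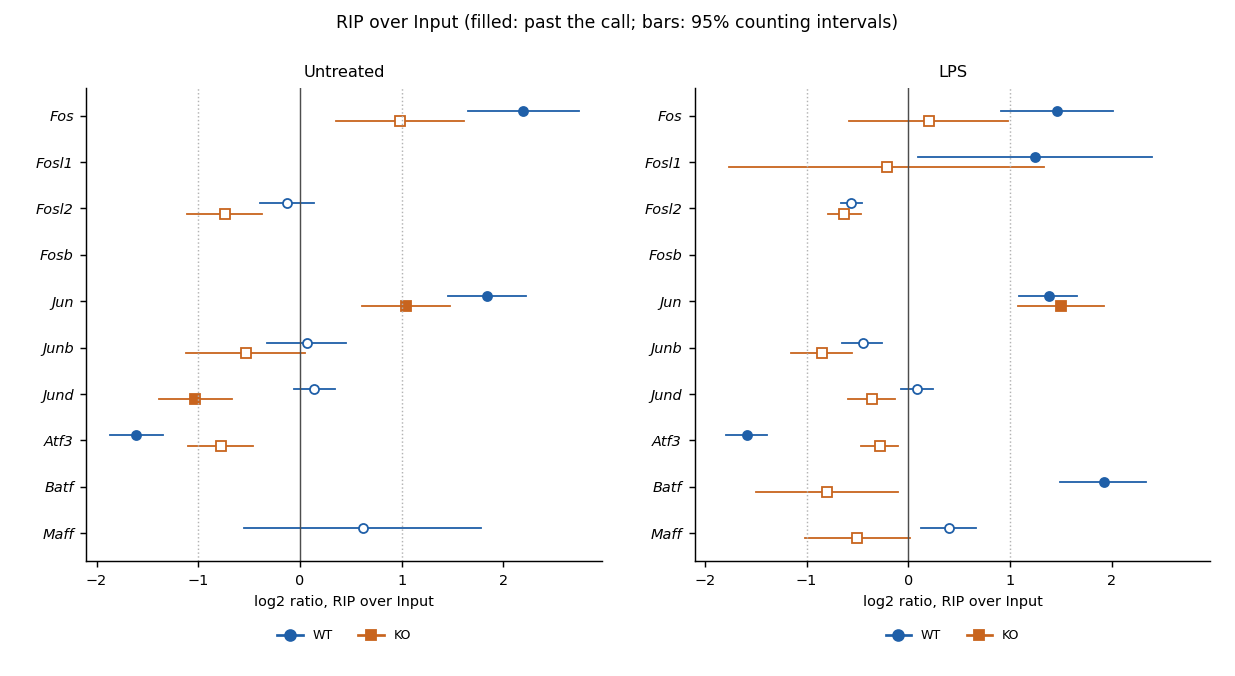
Log2 ratio of RIP over Input for each member in untreated (left) and LPS-treated cells (right), with WT as blue circles and KO as orange squares. Filled symbols were called, bars are 95% counting intervals and dotted lines mark a log2 ratio of 1 in size. Jun lies to the right in all 4 pairs, from 1.04 to 1.84, and Batf after LPS lies at 1.92 in WT and -0.80 in KO.

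The third comparison sets the WT RIP against the KO RIP, a contrast that the study used to define CPEB4-bound mRNAs. The study took fold changes of RPKM, together with a p-value or a score of RIP peaks over Input. Here the scale is the 3′-UTR total, and library totals, the scale implied by the deposited RPKM, follow as an alternative. This comparison shares its libraries with the RIP over Input ratios above, so the values are not independent of them. Fos and Jund were higher in WT in untreated cells, Maff and Batf were higher in WT after LPS, and Atf3 was lower in WT after LPS. In the untreated RIPs 2 of 7 counted members were called higher in WT and 0 lower, against 5.95% of 8064 genes called higher and 11.5% lower. In the LPS RIPs 2 of 9 were called higher and 1 lower, against 7.11% and 14.9% of 8310 genes. With library totals the background shares were 31.5% and 0.942% in untreated and 49.8% and 1.14% in LPS-treated cells. The members called were then 5 higher and 0 lower (Fos, Fosl2, Jun, Junb and Jund), and after LPS 8 higher and 0 lower, all but Fosb and Atf3.

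In the untreated RIPs Jund had 609 reads in WT and 71 in KO, a log2 ratio of 1.25 (0.90 to 1.60), and Fos had 245 and 33, a ratio of 1.02 (0.51 to 1.54). Of all genes counted 6.04% were higher than Jund and 9.14% higher than Fos. Jun had 0.68 (0.32 to 1.04), Junb 0.59 (0.02 to 1.17), Fosl2 0.28 (-0.10 to 0.65) and Maff 0.63 (-0.91 to 2.16), and none of them was called. Atf3 had -0.85 (-1.20 to -0.49), or -0.01 with library totals. The distance from Jund to Atf3, 2.10 on the log2 scale or 4.29-fold, holds under any scaling. In RIP over Input of untreated cells, Jund stood at 0.14 (-0.06 to 0.34) in WT and -1.03 (-1.39 to -0.67) in KO. Fos stood there at 2.19 (1.65 to 2.74) in WT and 0.98 (0.35 to 1.61) in KO. Jund was thus called without being higher in the WT RIP than in the WT Input beyond counting error.

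In the LPS RIPs Batf had 262 reads in WT and 21 in KO, a log2 ratio of 2.06 (1.44 to 2.69), and 0.854% of genes were higher. Maff had 293 and 40 reads and a ratio of 1.33 (0.85 to 1.80). Atf3 had 295 and 347 reads, though the WT library was the deeper one, and a ratio of -1.75 (-1.97 to -1.53), with 4.85% of genes lower. With library totals Atf3 stood at -0.61 and lost its call, and Batf stood at 3.20. Fos had 0.97 (0.31 to 1.62), just short of the size for a call, and passed it with TMM. Jund, at 0.33 (0.12 to 0.55), Jun, at 0.36 (0.07 to 0.66), Junb, at 0.26 (-0.04 to 0.56), and Fosl2, at 0.22 (0.06 to 0.38), lay close together. The distance from Batf to Atf3 was 3.81 on the log2 scale, or 14.0-fold.

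The lysates of the genotypes differed less. Among 8 members counted in the untreated Inputs and 9 in the LPS Inputs, 0 were called in each, against 1.22% and 1.82% of 7845 genes called higher and lower in untreated and 1.47% and 1.50% of 8151 in LPS-treated cells. Batf had a log2 ratio of WT over KO of -0.65 (-1.17 to -0.13) and Atf3 -0.44 (-0.59 to -0.29) in the LPS Inputs, so both stood lower in the WT lysate. Fosl2 had -0.34 (-0.60 to -0.08) in untreated and 0.15 (0.04 to 0.26) in LPS-treated cells. Maff had 0.43 (0.07 to 0.79) and Jun 0.48 (0.06 to 0.90) after LPS.

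The ratio of the RIPs was then corrected for that of the Inputs. In untreated cells Fos, at 1.22 (0.38 to 2.05), and Jund, at 1.17 (0.76 to 1.58), were called higher in WT among 7 members, against 9.47% of 7201 genes called higher and 11.8% lower. After LPS Batf, at 2.72 (1.90 to 3.53), and Fos, at 1.26 (0.31 to 2.21), were called higher and Atf3, at -1.31 (-1.58 to -1.04), lower among 9, against 8.07% and 15.7% of 7575 genes. Only 0.277% of genes had a higher ratio than Batf. Maff fell short of the call at 0.90 (0.31 to 1.49), and Fosl1 had 1.46 (-0.46 to 3.39), a wide interval that includes 0. Fosl2, at 0.07 (-0.12 to 0.26), and Jun, at -0.12 (-0.63 to 0.39), were near 0 after LPS, against 0.61 (0.16 to 1.07) and 0.79 (0.21 to 1.37) in untreated cells. With library totals the background shares were 32.7% and 1.60% in untreated and 46.5% and 1.12% in LPS-treated cells. The members called were then 5 and 8 higher, and Atf3 after LPS stood at -0.11. The median of the counted members was 0.61 in untreated and 0.45 in LPS-treated cells, beside -0.03 and -0.10 over all genes.

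**Figure D5:**
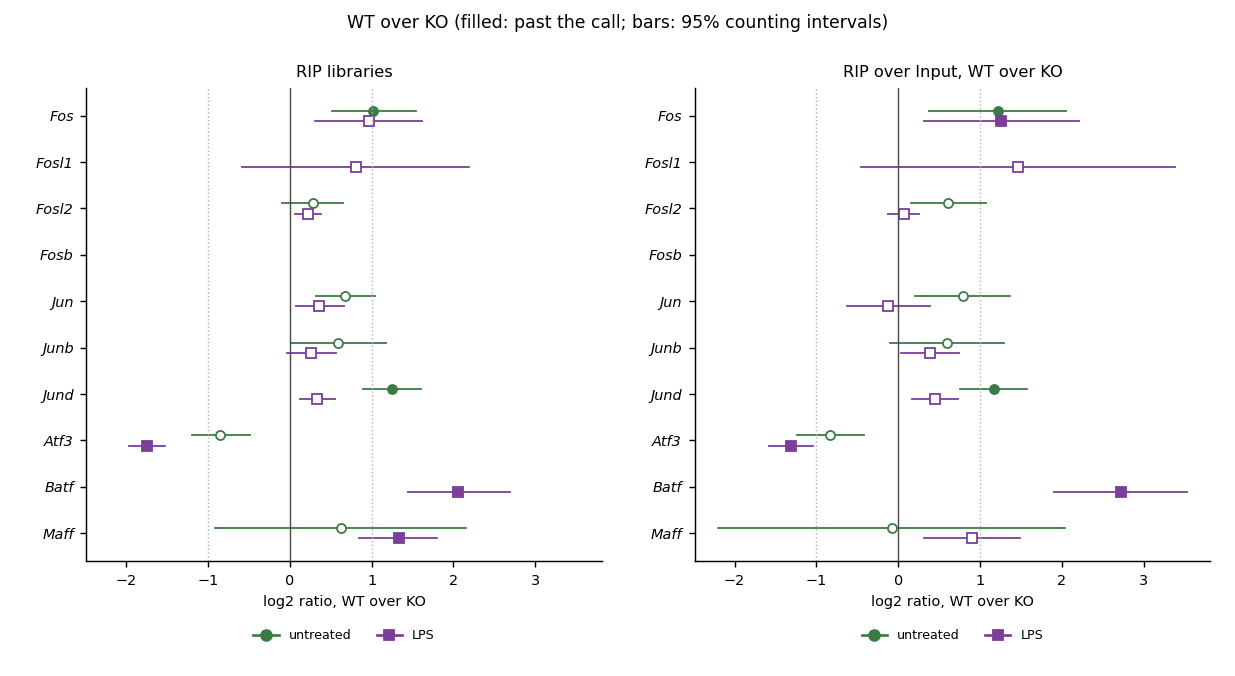
Log2 ratio of WT over KO for each member in the RIPs (left) and in the RIPs corrected for the Inputs (right), with untreated cells as green circles and LPS-treated cells as purple squares. Filled symbols were called, bars are 95% counting intervals and dotted lines mark a log2 ratio of 1 in size. After LPS Batf lies farthest to the right (2.06 and 2.72) and Atf3 farthest to the left (-1.75 and -1.31) in both panels.

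Whether the RIP ratios themselves moved with LPS was read from the differences of the ratios above. Between LPS and untreated cells the RIP ratio of WT over KO moved enough for a call in 0 of 7 counted members, against 2.18% of 7463 genes called higher and 2.40% lower. Jund had -0.92 (-1.33 to -0.50) and Atf3 -0.90 (-1.32 to -0.48), so both stood lower in WT relative to KO after LPS than before, and Fos had -0.06 (-0.89 to 0.78). The RIP over Input ratio of WT cells passed the call for 0 of 7 members, against 0.968% and 3.25% of 7855 genes, and that of KO cells for 0 of 6, against 1.38% and 2.01% of 7013 genes. In WT it moved by -0.73 (-1.51 to 0.04) for Fos and by 0.02 (-0.30 to 0.35) for Atf3, or by -0.28 and 0.47 with library totals. In KO it moved by 0.67 (0.24 to 1.10) for Jund and by 0.50 (0.13 to 0.87) for Atf3. With library totals, a scaling added here after values had been seen, the move of the WT over KO ratio was -0.62 for Jund, -0.60 for Atf3 and 0.24 for Fos, and 0 members were called in any of these differences. Batf could not be counted here, since it had at most 7 reads in any untreated library.

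Other bZIP genes gave the same comparisons for partners and relatives. Of 24 listed, 22 were in the tables. In the WT Input after LPS Batf2, Jdp2 and Cebpb were called higher among 20 counted, and the genes called lower included Atf5, Atf6, Bach1 and Cebpa, against 11.7% and 15.4% of all genes. The genes named were called in the same direction in the KO Input. Cebpb, a C/EBP factor of the LPS response, had a log2 ratio of 1.25 (1.03 to 1.48) in the WT Input, and Cebpa, a C/EBP factor of myeloid cells, had -2.68 (-2.96 to -2.39). In the WT RIP over Input after LPS 9 of 21 were called higher and 7 lower, among them Creb1 with 1.99 (1.72 to 2.26) and Batf2 with -2.23 (-3.08 to -1.37), against 21.6% and 25.4% of all genes. Batf and Batf2 thus lay on opposite sides of 0. In the LPS RIPs of WT over KO, 4 of 21 were called higher (Atf1, Atf2, Jdp2 and Nfe2l2) and 3 lower (Atf5, Batf2 and Ddit3), against 7.11% and 14.9% of all genes. Jdp2, a partner of JUN proteins, had 1.47 (1.08 to 1.87), and the median of the 21 was 0.14 beside 0.36 for the 9 counted members. With library totals each WT over KO ratio of the LPS RIPs moves up by 1.14 on the log2 scale. The shares of all genes called higher and lower are then 49.8% and 1.14%, and the relatives were not recounted.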

How the data were processed

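RIP and Input libraries of mouse BMDMs were analysed from the tables of the authors. According to the methods, the authors aligned reads to mm10 with Bowtie2 (2.2.2, local mode), removed duplicate reads and made the deposited read counts over Ensembl 3′-UTRs. The deposited RPKM of the authors served only to obtain library totals. The deposited columns of fold changes, p-values and MACS (1.4.2) peak scores were not used, and the CPE predictions were read as labels.

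Rows without a symbol (495 of 31117, from 0.902% to 1.04% of reads) were left out, the region with the most reads stood for a gene, and counts were scaled to the sum over the other rows. Of these rows, 3762 repeat coordinates, so overlapping isoforms count reads more than once. Ratios are log2 of reads + 1 after scaling, with 95% normal intervals from the counts, and levels have Wilson intervals. Regions with 3 or fewer reads in both libraries got no ratio. A pair needed 10 reads, a difference of ratios 10 in each pair. With 1 library per group no pair of libraries was tested, and the p-value based rules among the alternatives compare libraries, not conditions. LPS was also tested with edgeR's quasi-likelihood test over the 4 Inputs and the 4 RIPs, with the culture as a block and Benjamini-Hochberg adjustment, in genes with 10 reads in each culture. This test was added after values had been seen, and culture and genotype cannot be told apart. Members and lists were chosen with earlier results of these data known, and the LPS changes of RIP ratios were added after values had been seen. Alternatives were other totals (edgeR 4.0.16 TMM, DESeq2 1.42.0 median-of-ratios), reads added, minimum reads, thresholds, call rules and regions. The ratios and the edgeR test were tested on simulated data. Python 3.11.15 and R 4.3.3 were used. All members were named, and list genes only where called in a WT comparison. The values of a listed gene are not reported here.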

Additional observations from a re-analysis of the deposited data

Results flagged for a closer look

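Of 10 members compared over 8 pairs of contrasts, 3 ratios had intervals on opposite sides of 0. These were 5.17% of the 58 counted in both contrasts, against 0.947% over all genes. Intervals narrow with more reads, and the shares were not matched for reads. Over all libraries Fosl2 had 5402 reads, Jund 3463 and Batf 408. For each of the 3 ratios the difference was not tested, since each group is 1 library. Jund had a log2 ratio of LPS over untreated of -0.21 (-0.36 to -0.06) in the WT RIP and 0.71 (0.32 to 1.09) in the KO RIP, and with library totals the WT value turned to 0.31, with TMM to 0.07 and with median-of-ratios to 0.03. Batf after LPS had a RIP over Input ratio of 1.92 (1.49 to 2.34) in WT and -0.80 (-1.50 to -0.10) in KO cells. Fosl2 had a WT over KO ratio of -0.34 (-0.60 to -0.08) in the untreated and 0.15 (0.04 to 0.26) in the LPS Inputs, and both kept their signs under these scalings. The interval of Fosl2 in the LPS Inputs then included 0, with 0.09 (-0.02 to 0.20) for library totals and 0.07 (-0.04 to 0.18) for median-of-ratios.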

How the results depend on the processing

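Of 159 counts of called members under an alternative, 131 were within 1.5 times the count reported, and the other counts are given below. The 816 recomputed member ratios include ratios that were not called. Of these 816, 79 moved outside the counting interval of the reported ratio. With library totals 52 of 136 did so. A change of sign was looked for in called ratios only, and 0 were found. Called ratios are over 1 in size, and most scalings shift a ratio by less. The edgeR exact test with a preset variation of 0.4 called 2 members after LPS in the WT Input, KO Input and WT RIP and 0 in the KO RIP, and called 0 in all RIP over Input and WT over KO RIP comparisons. Library totals called 4 (untreated) and 5 (LPS) in RIP over Input of KO, 5 and 8 in WT over KO RIP, and 5 and 8 after Input correction. TMM and median-of-ratios each called 1 in the untreated KO RIP over Input. A minimum of 50 reads left 3 in the KO RIP after LPS, and no minimum gave 2 in the LPS RIP over Input of KO. A log2 ratio over 0.5 called 5 and 4 in RIP over Input of KO, 5 in untreated WT over KO RIP, 1 in the LPS Inputs and 5 in untreated cells after Input correction. A p-value rule was adapted from the methods, which applied theirs to WT against KO RIPs for enriched regions. Here it came from a chi-square test, ran in both directions and on all pairs, and left out the peak score. Its log2 ratios were scaled to 3′-UTR totals, whereas the methods used fold changes of RPKM. The adapted rule called 4 and 3 in RIP over Input of KO and 4 in untreated WT over KO RIP. The causes were not tested. Adding 0.1 reads, the longest region and the sum of regions left all counts within 1.5 times. By replicate number no paired analysis was possible because the numbers are lanes of 1 library that share a column, and no replicate could be left out for the same reason. With the culture as a block, edgeR called 5 members in the Inputs and 6 in the RIPs after LPS, or 4 and 6 with TMM. Depth limits Fosb and Fosl1, with 26 and 47 reads over all libraries, and Batf before LPS, and the untreated KO RIP, with 467696 reads, is the shallowest library.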

Other observations

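Immediate-early genes outside AP-1 gave a further view of the response at 9 h. The list also held Srf, Elk1, Elk3 and Elk4 as activators of such genes. All 17 listed were in the tables. In the WT Input 13 were counted, and Ier3 and Elk1 were called higher and Egr1 and Egr2 lower after LPS, against 11.7% and 15.4% of all genes. Ier3, an early gene of NF-κB signalling, had a log2 ratio of 2.90 (2.36 to 3.43). Egr2, a zinc finger factor of macrophages, had -3.90 (-5.64 to -2.16) from 2 and 21 reads. In WT RIP over Input 6 of 15 were called higher in untreated and 6 of 14 in LPS-treated cells, and 0 lower in both, against 21.2% and 21.6% of all genes called higher and 19.8% and 25.4% lower. In WT over KO of the RIPs Klf2 had 1.67 (0.82 to 2.52) in untreated and 1.62 (0.99 to 2.26) in LPS-treated cells, and Btg2, an antiproliferative early gene, had 1.18 (0.88 to 1.48) and 1.13 (0.88 to 1.37). Of the 15 and 13 counted there, 0 were called lower in WT, against 11.5% and 14.9% of all genes. With library totals only 0.942% and 1.14% of all genes were called lower, and 31.5% and 49.8% higher. The list was not recounted with library totals.

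The 3 members with the most reads were compared with 4092 genes for the likeness of their pattern over the 8 libraries. These genes had at least 10 reads in every library, which leaves out genes unread before LPS. The measure was the root mean square of the difference in centred log2 levels. For Fosl2 the nearest were Sept11, St3gal5 and Bysl, at 0.19 each, beside a median of 1.15 over the genes compared. For Jund they were Slc35a2 (0.10), Mfap3 (0.13) and Phc2 (0.15), beside 0.74. For Atf3 they were Cox6b1 (0.18), Arhgdia (0.18) and Sys1 (0.19), beside 0.95.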
